A study of Mus musculus with 35 samples.

Results

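The transcripts of 10 secreted factors linked to liver fibrosis, 9 growth factors and 1 matrix protein, were followed across sorted mouse liver macs by bulk RNA-seq. They were chosen by symbol as a list of growth factor and matrix genes, and all 10 were found among the 54735 symbols of the count files and passed the filter on low counts that left 13421 genes for testing. The TGF-beta ligands were Tgfb1, Tgfb2 and Tgfb3, the PDGF ligands Pdgfa, Pdgfb and Pdgfc, the other growth factors Igf1, Vegfa and Hbegf, and the matrix protein Fn1, encoding fibronectin. The 35 samples came from C57Bl/6J mice, males by the study's methods, that were placed at 5 weeks of age on a standard diet (SD) or on a Western diet (WD), which is rich in fat and cholesterol and was given with sugared drinking water (sucrose and fructose). Resident Kupffer cells (ResKCs), sorted as CLEC4F+TIM4+, were sampled from SD-fed mice after 12 weeks (n = 7) and 24 weeks (n = 6) of diet and from WD-fed mice after 12 weeks (n = 5) and 24 weeks (n = 6). Monocyte-derived KCs (moKCs), sorted as CLEC4F+TIM4-, were sampled from WD-fed mice at 24 weeks (n = 5), as were the CLEC4F- macs that lack both markers (n = 6). Neither of the latter populations was sampled from SD-fed mice, so their diet response is not analysed here. The study's text counts n in animals, but neither it nor the labels link single samples to single mice, and p-values are taken to measure the spread between these samples.

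TGF-beta is made as a latent complex that is stored in the matrix or on the cell surface and has to be released before it binds its receptors, and it is the best known inducer of collagen synthesis in hepatic stellate cells. PDGF dimers drive the proliferation and migration of those cells, with PDGF-CC needing proteolytic cleavage to become active. IGF1, VEGFA and HBEGF act on parenchymal, endothelial and EGF receptor-bearing cells, and fibronectin forms the provisional matrix on which collagen and latent TGF-beta are deposited. KCs and recruited macs are both described as sources of such factors in the fibrotic liver.

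Total counts lay between 11568590 and 15163845 per sample, so that 3 counts correspond to 0.198 to 0.259 CPM by library total alone. All levels below are in CPM that were also scaled by the TMM factor. The sorting markers followed the labels in level. Timd4 was at 546 to 1356 CPM in the ResKC samples, at 2.85 to 30.3 CPM in moKCs and at 3.42 to 14.6 CPM in CLEC4F- macs. Clec4f was at 294 to 1537 CPM in 5 CLEC4F- samples, but at 5482 CPM in CLEC4F- replicate 4, against 7317 to 17474 CPM in all CLEC4F+ samples. WD ResKC replicate 4 at 24 weeks stood apart in Fn1 and Tgfb2, and moKC replicate 1 had the highest Hbegf of the moKCs. Differences of the genes named that lost their call without 1 of these 3 samples are given with and without it. The count files carry names of 2 patterns, 22 samples of one and 13 of the other, whose meaning the labels do not give. All SD ResKC samples at 24 weeks have the first pattern, whereas WD ResKCs at 24 weeks have 3 of each.

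Promoter entries of RefSeq (GRCm38.p6) were matched for 6 of the 10 genes, Tgfb1, Tgfb2, Pdgfa, Pdgfc, Igf1 and Vegfa. The 250 bases before the start site are shown for the gene with the narrowest span of group means, Tgfb1, and for 3 genes that passed a test between groups, each 5′ to 3′ on the strand of the gene. Capitals mark matches on either strand to 6 short motifs. The letters searched were TATAAA for the TATA box and CCAAT for the CCAAT box. The GC box was searched as GGGCGG and the AP-1 site as TGANTCA. The core of the hypoxia response element was searched in either of its forms, ACGTG and then GCGTG. The PU.1 site, bound by a factor of the myeloid lineage, was searched as GAGGAA. Matches of 2 motifs can overlap, as for a GC box and the hypoxia core in Tgfb1.
Tgfb1, chr7:25686752-25687001, + strand: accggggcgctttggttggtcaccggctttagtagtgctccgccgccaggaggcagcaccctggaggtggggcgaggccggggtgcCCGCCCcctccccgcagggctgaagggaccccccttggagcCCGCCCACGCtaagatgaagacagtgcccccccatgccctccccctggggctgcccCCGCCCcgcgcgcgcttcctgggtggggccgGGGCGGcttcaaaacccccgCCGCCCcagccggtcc
Tgfb2, chr1:186705990-186706239, - strand: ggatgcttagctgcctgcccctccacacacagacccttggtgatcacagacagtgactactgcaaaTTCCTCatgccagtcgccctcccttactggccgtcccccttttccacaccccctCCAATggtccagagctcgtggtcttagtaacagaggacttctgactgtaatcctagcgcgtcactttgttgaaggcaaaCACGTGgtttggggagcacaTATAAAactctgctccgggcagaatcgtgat
Pdgfc, chr3:81036166-81036415, + strand: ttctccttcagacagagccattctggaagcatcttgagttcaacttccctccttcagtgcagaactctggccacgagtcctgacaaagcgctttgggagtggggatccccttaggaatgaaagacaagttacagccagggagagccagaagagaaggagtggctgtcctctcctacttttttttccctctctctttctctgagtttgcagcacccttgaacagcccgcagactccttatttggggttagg
Vegfa, chr17:46032378-46032627, - strand: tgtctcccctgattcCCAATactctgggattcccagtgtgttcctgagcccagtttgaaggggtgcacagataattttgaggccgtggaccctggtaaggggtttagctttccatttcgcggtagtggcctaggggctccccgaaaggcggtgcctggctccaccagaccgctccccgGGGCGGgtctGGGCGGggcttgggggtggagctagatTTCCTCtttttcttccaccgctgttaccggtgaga
The Tgfb1 window had a GC content of 75.2% and 5 GC box matches, a motif held by 32.7% of the 32817 promoter windows of the same length. The Tgfb2 window had 53.6% GC and held a TATA box match 31 bases before the start site, a motif found in 12.4% of all windows. Its CACGTG run holds the hypoxia core on both strands, and 38.6% of all windows hold that core. The Vegfa window held 2 GC box matches, a CCAAT match (33.8% of all windows) and a PU.1 match (23.3%). A second entry for Vegfa, at an internal start, is not shown. Its window held 2 matches to the hypoxia core, 218 and 211 bases before that start, where the first window held none. The Pdgfc window held no match to any of the 6 motifs, of which the AP-1 site was found in 6.75% of all windows.

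Per kilobase of exon, the 10 genes covered a wide range of levels within each group. In SD ResKCs at 24 weeks, Igf1 had the highest level at 56.9 CPM per kb, followed by Tgfb1 at 45.1, Pdgfc at 18.6, Hbegf at 13.2 and Pdgfb at 9.30 CPM per kb. Fn1 (3.94 CPM per kb), Pdgfa (3.10) and Tgfb3 (2.65) were lower, and Vegfa (0.256) and Tgfb2 (0.0816) were near the limit of detection. In WD ResKCs at 24 weeks Fn1 stood in the third place with 22.2 CPM per kb, but without replicate 4 it was at 14.9 CPM per kb and stood below Pdgfc (20.2 CPM per kb). In CLEC4F- macs Tgfb1 (51.3 CPM per kb) stood above Igf1 (39.8 CPM per kb). Over the 6 groups, the highest group mean exceeded the lowest by 1.33-fold for Tgfb1, 1.54-fold for Pdgfa, 1.60-fold for Igf1, 2.01-fold for Pdgfb, 2.12-fold for Pdgfc and 2.60-fold for Tgfb3. The spans of Hbegf (5.07-fold), Fn1 (8.02-fold), Vegfa (14.9-fold) and Tgfb2 (32.5-fold) were wider, and those of Fn1 and Tgfb2 were 5.95-fold and 18-fold without WD ResKC replicate 4 at 24 weeks. The lowest mean of Tgfb2 was that of SD ResKCs at 12 weeks, where 3 of 7 samples were at 0. In bulk RNA of sorted cells, a lower level in all cells cannot be told apart from fewer cells that express the gene.

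**Figure D1:**
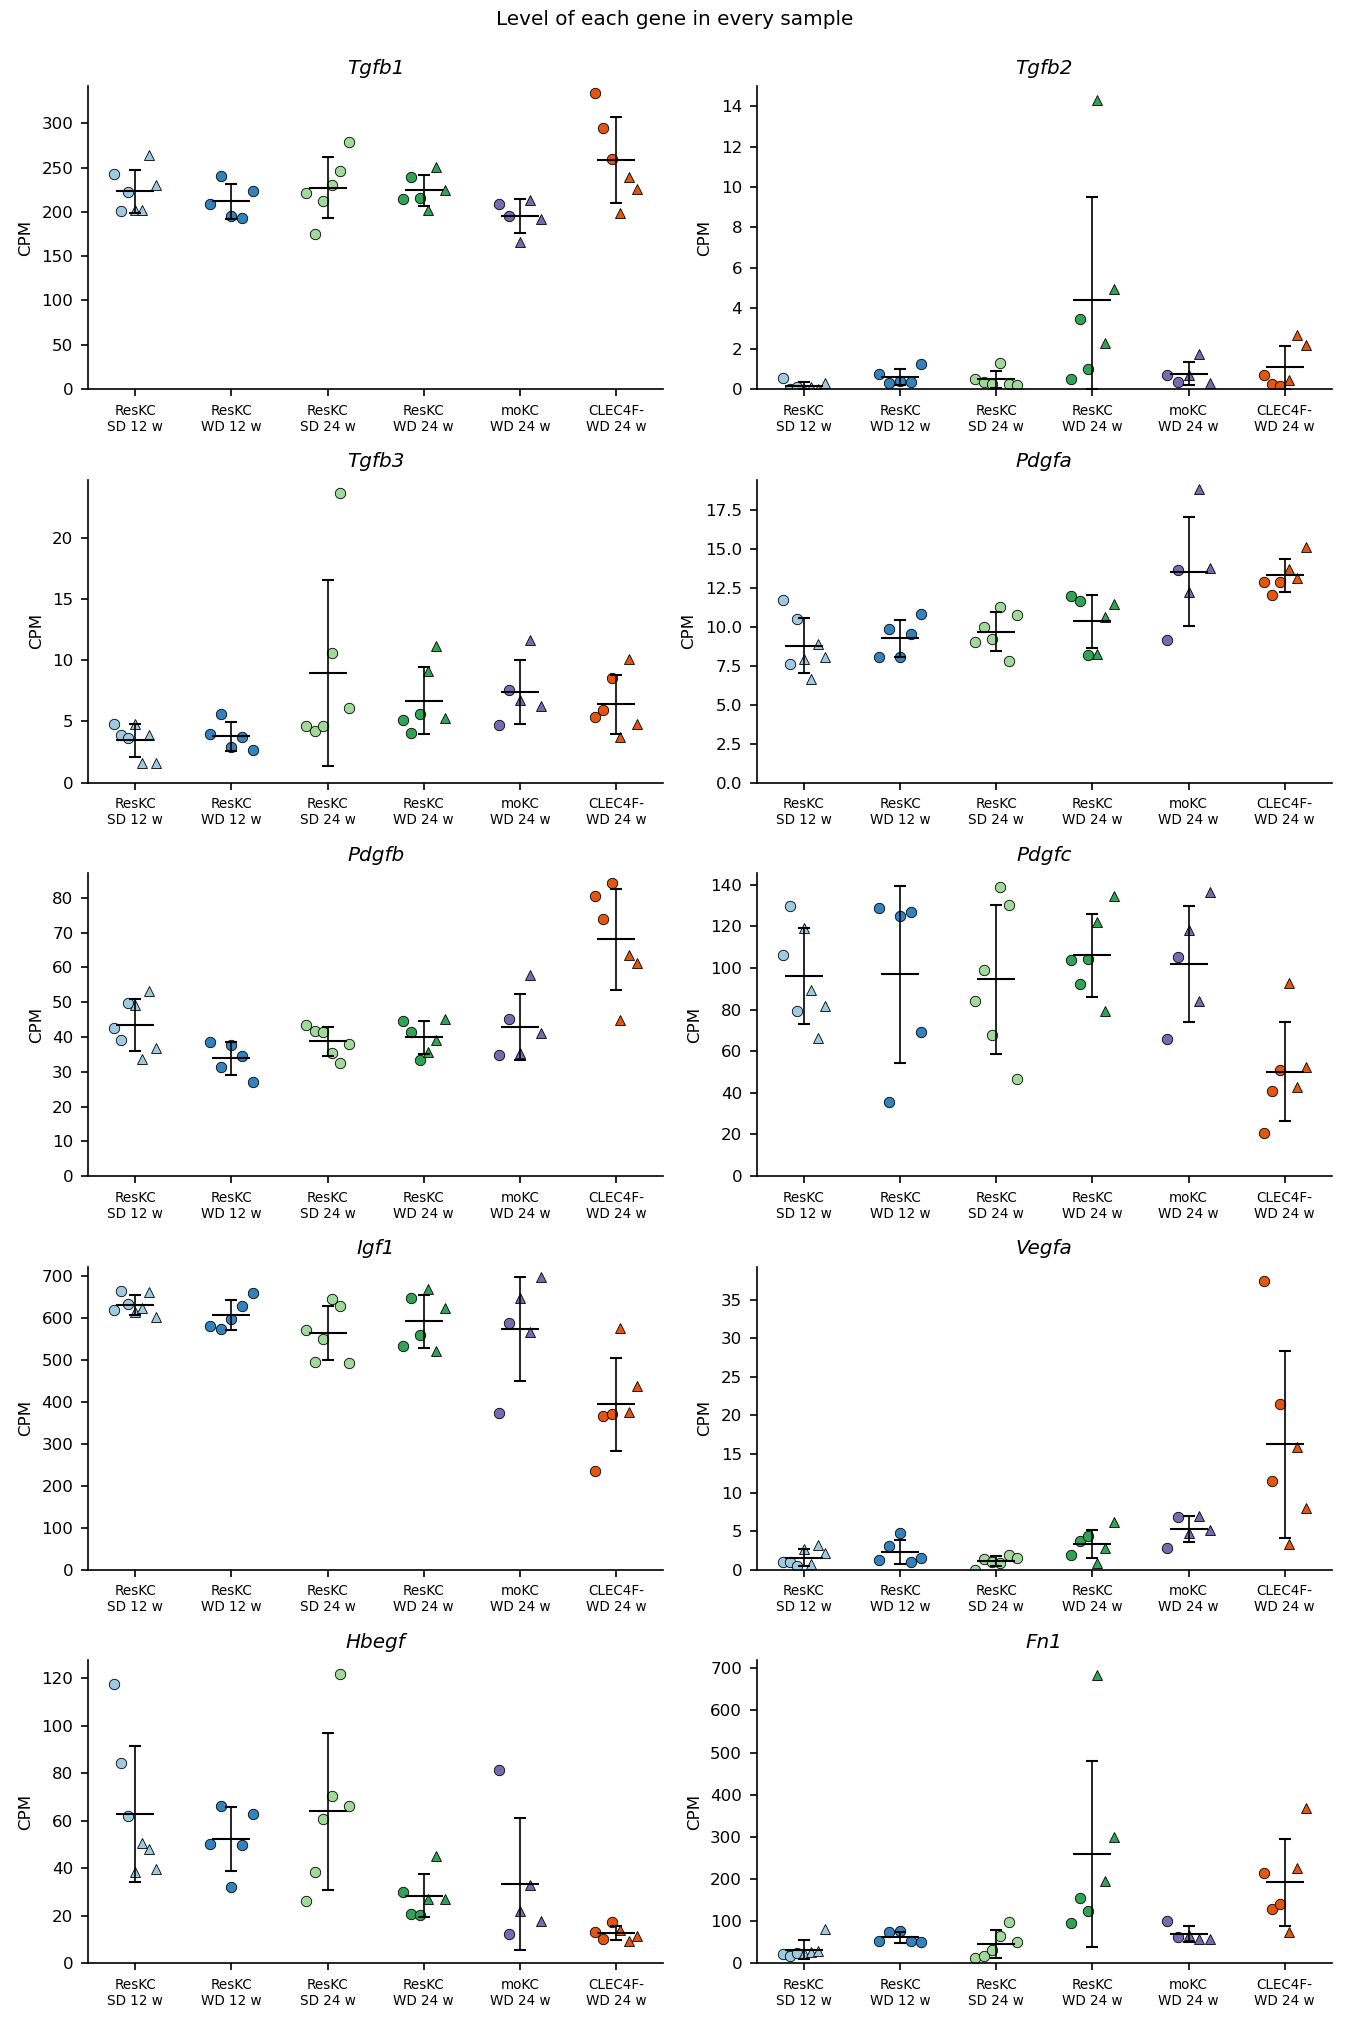
Level of each of the 10 genes in CPM (vertical axes, scaled per gene and starting at 0) in the 6 groups (horizontal axis). Points are samples, circles of the first and triangles of the second name pattern, the long tick is the group mean and the bars are 1 SD, stopped at 0. Fn1 and Tgfb2 were highest in a single WD ResKC sample at 24 weeks (685 and 14.3 CPM), and Vegfa and Pdgfb had their highest means in CLEC4F- macs.

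The first question was which of these factors ResKCs change on the WD. At 24 weeks Fn1 and Tgfb2 rose and Hbegf fell, so that 3 of the 10 genes passed an adjusted p of 0.05 in edgeR's quasi-likelihood test, against 8.71% of all genes tested (2 higher against 4.84% and 1 lower against 3.87%). The other 7 genes did not pass, and the median log2 fold change was 0.08 over the 10 genes and 0.004 over all genes. Of the 3 genes, only Fn1 also passed with the name pattern as a covariate or without WD ResKC replicate 4. Within the first name pattern, only Hbegf passed. At 12 weeks none of the 10 genes passed, nor under DESeq2 or limma-voom. Of all genes 0.0373% passed in edgeR (5 genes), with 44 genes under DESeq2 and 1 under limma-voom. At 12 weeks 3 of the 10 had an unadjusted p under 0.05, against 8.73% of all genes. The difference between the diet effects at the 2 time points passed for 0 of 10 genes (0.283% of all genes in edgeR), as it did under DESeq2 and limma-voom (187 and 37 of all genes), with 2 of 10 at an unadjusted p under 0.05 (14.1% of all genes). None of the 10 passed between SD ResKCs at 24 and 12 weeks by edgeR, DESeq2 or limma-voom either, against 0% of all genes in edgeR, 16 genes under DESeq2 and 0 under limma-voom, and 1 of 10 had an unadjusted p under 0.05, against 9% of all genes.

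The second question was how recruited macs differ from ResKCs in the WD-fed liver at 24 weeks. CLEC4F- macs had more Vegfa and Pdgfb and less Tgfb2, Pdgfc, Igf1 and Hbegf than ResKCs, 6 of 10 genes against 33% of all genes tested (2 higher against 16.1% and 4 lower against 17%). Compared with moKCs, CLEC4F- macs had more Fn1, Vegfa, Pdgfb and Tgfb1 and less Pdgfc, Igf1 and Hbegf, 7 of 10 against 16.4% of all genes (4 higher against 7.09% and 3 lower against 9.34%). Of these 7, 4 changed by more than 1 on the log2 scale, as did 5.05% of all genes. Between moKCs and ResKCs only Fn1 passed, with less in moKCs, 1 of 10 against 2.99% of all genes (2% of all genes were lower). The 3 comparisons share their samples pairwise and are not independent of each other. Leaving out the TMM scaling moved the median of all genes between CLEC4F- macs and ResKCs from 0.023 to 0.144 on the log2 scale, and differences near that size, such as that of Tgfb1, depend on it. The name patterns of the files gave other values. Within the first pattern, 3 CLEC4F- against 3 ResKC samples, the log2 fold change was 1.00 for Pdgfb, -1.42 for Pdgfc, -0.84 for Igf1 and 2.81 for Vegfa, all past the limit, Tgfb1 came to pass (0.41 ± 0.13, adjusted p = 0.0225), and 3802 of all genes passed. Hbegf did not, with -0.80 (adjusted p = 0.216). Within the second pattern it was 0.50 for Pdgfb, -0.84 for Pdgfc, -0.38 for Igf1 and 1.46 for Vegfa, none of them past the limit (adjusted p of 0.0615 to 0.171), and -1.51 for Hbegf (adjusted p = 0.0288), where 1988 of all genes passed, against 4433 in the fit over all samples. Tgfb2 was at -2.18 and -2.02 within the first and second pattern and passed in neither (adjusted p of 0.0974 and 0.130). CLEC4F- replicate 4 is one of the 3 CLEC4F- samples of the second pattern. Against moKCs, 4 of the 7 genes passed within the first pattern, namely Tgfb1, Pdgfb, Igf1 and Hbegf, and none within the second, each with its sign unchanged, while 1882 and 482 of all genes passed there, against 2204 over all samples.

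Markers of other cells moved with the CLEC4F- macs. The 8 T, B and NK cell markers summed to 12.5 to 117 CPM there against 6.16 to 9.19 CPM in ResKCs, and the 6 dendritic cell markers to 21.7 to 172 CPM against 10.1 to 21.2 CPM, none of them at 0 in all samples of either group. Of the 10 stellate cell markers, 4 were higher in CLEC4F- macs than in ResKCs and 1 lower, with Col1a1 at 3.23 to 9.75 CPM against 0.507 to 4.10 CPM (2.16 ± 0.75, adjusted p = 0.0239), although their sum was 152 to 485 CPM against 304 to 435 CPM, none of them at 0 in all samples. Of all genes, 16.1% were higher and 17% lower in this comparison, which also applies to the neutrophil and platelet markers below. The 7 neutrophil markers summed to 8.30 to 13.2 CPM against 2.63 to 6.85 CPM, with Ly6g and Camp at 0 in all samples of both groups, and 1 of the 3 tested, Mmp8, was higher (2.02 ± 0.52, adjusted p = 0.00279). Of the 10 platelet and megakaryocyte markers, 3 were tested, and Itga2b (0.452 to 0.949 CPM against 0 to 0.376 CPM) and Ppbp (0.323 to 2.19 CPM against 0.0766 to 0.551 CPM) were higher in CLEC4F- macs, at few counts. Clec1b, which KCs also express, was lower, and it made up most of the sums of 115 to 435 CPM against 449 to 560 CPM, with Gp1bb at 0 in all samples of both groups. Against moKCs, 3 of the 5 tested T, B and NK cell markers and 2 of the 5 tested dendritic cell markers were higher in CLEC4F- macs (7.09% of all genes). None of these was lower (9.34%), and none of the 10 stellate cell markers passed there. Of the 3 tested platelet markers 0 were higher and 1, Clec1b, was lower. The part of these markers in the differences was not tested.

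**Figure D2:**
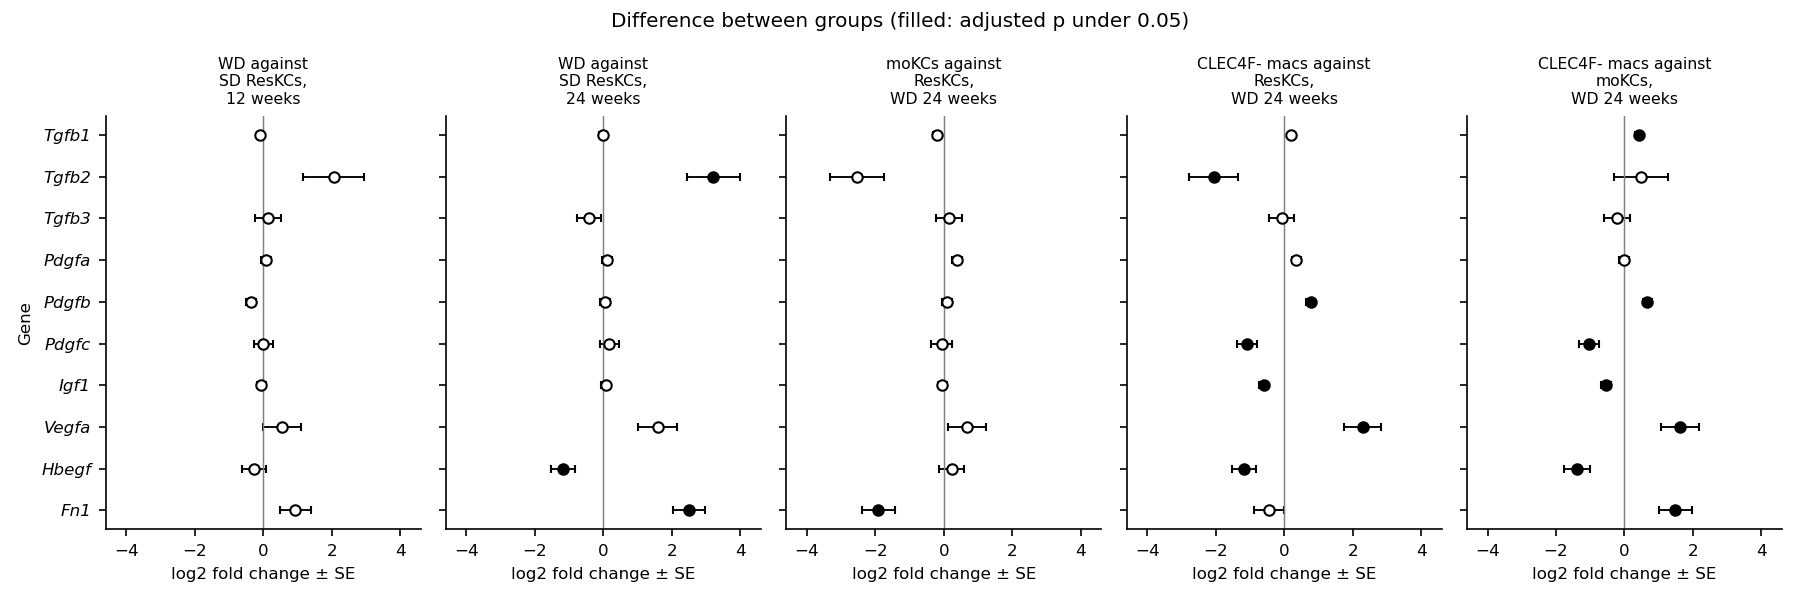
Log2 fold change (horizontal axes) with its SE (bars) of each gene (vertical axis) in 5 comparisons from the fit over all 35 samples. Filled points passed an adjusted p of 0.05, which was the case for 0, 3, 1, 6 and 7 genes from left to right.

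Among the TGF-beta ligands, Tgfb1, the ubiquitous isoform and the main one of leukocytes, was even across ResKCs. It was at 175, 226 and 279 CPM (lowest, median, highest) in SD ResKCs at 24 weeks and at 203, 220 and 250 CPM in WD ResKCs, a log2 fold change of -0.02 ± 0.10 (SE, adjusted p = 0.943, edgeR) with overlapping groups. In moKCs it was at 209, 195, 165, 213 and 192 CPM and in CLEC4F- macs at 199, 249 and 334 CPM. Of the 6 CLEC4F- samples, 5 lay above all moKC samples, and Tgfb1 was higher in CLEC4F- macs by 0.41 ± 0.11 (adjusted p = 0.00833), which did not pass with the compared groups alone (0.42 ± 0.13, adjusted p = 0.0522). Against ResKCs the difference of 0.20 ± 0.10 did not pass (adjusted p = 0.136), but without CLEC4F- replicate 4 it was 0.27 ± 0.10 (adjusted p = 0.0392), and without TMM scaling it was 0.33 (adjusted p = 0.0129). The gene (ENSMUSG00000002603.15) lies at chr7:25687002-25705077 on the + strand of mm10.

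Tgfb2, an isoform better known from epithelial and mesenchymal cells, was near the detection limit in all groups but WD ResKCs at 24 weeks. By library total alone, the scale of the filter, it was over 1 CPM in 10 of 35 samples, 5 of them WD ResKCs at 24 weeks and 5 of other groups. SD ResKCs at 24 weeks had 0.216, 0.299 and 1.30 CPM (lowest, median, highest), and WD ResKCs had 0.507, 2.86 and 14.3 CPM. Of the 6 WD samples, 4 lay above all SD samples. The log2 fold change was 3.21 ± 0.78 (adjusted p = 0.00888). Without WD ResKC replicate 4, the sample at 14.3 CPM, it was 2.35 ± 0.74 (adjusted p = 0.0501), and among samples of the first name pattern, 3 WD against 6 SD, it was 1.79 ± 0.78 (adjusted p = 0.178). With the name pattern as a covariate it was 2.25 ± 0.78 (adjusted p = 0.0715). At 12 weeks the WD samples had 0.729, 0.297, 0.392, 0.320 and 1.23 CPM and the SD samples 0, 0.0737 and 0.517 CPM, with 3 of 7 SD samples at 0 counts, and the difference did not pass (2.06 ± 0.89, adjusted p = 0.509). In CLEC4F- macs Tgfb2 was at 0.129, 0.565 and 2.66 CPM and fell by 2.06 ± 0.72 against WD ResKCs (adjusted p = 0.0259), which was -1.20 ± 0.70 without WD ResKC replicate 4 (adjusted p = 0.201). It also no longer passed when 1 of CLEC4F- replicates 1 to 4 was left out, with the compared groups alone (adjusted p = 0.0716), or with replicate number as a block (-1.84, adjusted p = 0.0877). In moKCs it was at 0.709, 0.355, 0.674, 1.75 and 0.292 CPM, which did not pass against ResKCs (-2.54 ± 0.79, adjusted p = 0.0747). The gene (ENSMUSG00000039239.14) lies at chr1:186622792-186705989 on the - strand.

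Tgfb3, the third isoform, passed in no comparison. Its largest difference was that between SD ResKCs at 24 weeks (4.19, 5.38 and 23.6 CPM as lowest, median and highest) and at 12 weeks (1.56, 3.91 and 4.80 CPM), with a log2 fold change of 1.37 ± 0.36, an unadjusted p of 5.37e-04 and an adjusted p of 0.218 in edgeR's test. Of the 6 samples at 24 weeks, 3 lay above all samples at 12 weeks. WD ResKCs had 2.70 to 5.64 CPM at 12 weeks and 4.06 to 11.1 CPM at 24 weeks, moKCs 4.71 to 11.7 CPM and CLEC4F- macs 3.72 to 10.1 CPM, so that all 24-week groups overlapped. The gene (ENSMUSG00000021253.7) lies at chr12:86056745-86079041 on the - strand.

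Of the genes that store or release TGF-beta, 8 of 11 were tested, and in WD against SD ResKCs at 24 weeks 4 rose and none fell, where 4.84% of all genes rose and 3.87% fell. Ltbp1, which tethers the latent complex to the matrix, was at 5.72 to 64.0 CPM in WD and 0 to 7.42 CPM in SD samples (log2 fold change 2.75 ± 0.75, adjusted p = 0.0200). Thbs1, a matricellular activator of latent TGF-beta, was at 11.6 to 165 CPM against 3.51 to 22.7 CPM (2.26 ± 0.53, adjusted p = 0.00770). Ltbp3 (2.17 ± 0.60, adjusted p = 0.0208) and the convertase gene Furin (0.29 ± 0.09, adjusted p = 0.0309) also rose. The median over the 8 genes was 0.23. WD ResKC replicate 4 was the highest sample of its group for Ltbp1 and Thbs1, as for Tgfb2, and the next samples were at 21.7 and 56.2 CPM. Without it, a fit chosen after its values were seen, none of the 4 genes passed (3.61% of all genes rose), with Ltbp1 at 2.02 ± 0.74 (adjusted p = 0.0937), Thbs1 at 1.43 ± 0.47 (0.0603), Ltbp3 at 1.89 ± 0.61 (0.0579) and Furin at 0.28 ± 0.09 (0.0569). Nrros, which anchors latent TGF-beta on myeloid cells, was at 383 to 499 CPM in WD and 413 to 624 CPM in SD samples and did not pass (adjusted p = 0.324). Of 14 receptor and SMAD genes, none passed with diet at 24 weeks. In CLEC4F- macs against ResKCs 4 of the 14 were higher (16.1% of all genes) and 2 lower (17%), led by the type I receptor gene Tgfbr1 (471 to 703 CPM against 191 to 259 CPM, 1.32 ± 0.13, adjusted p = 1.22e-09).

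Among the PDGF ligands, none passed with diet in ResKCs at either time. Pdgfb, whose product is the strongest mitogen of stellate cells, had its highest mean in CLEC4F- macs. CLEC4F- macs had 45.0, 68.8 and 84.2 CPM (lowest, median, highest), WD ResKCs 33.4, 40.4 and 45.2 CPM and moKCs 34.9, 45.3, 35.3, 57.7 and 41.1 CPM. Of the 6 CLEC4F- samples, all but replicate 4 lay above all ResKC and all moKC samples. Pdgfb was higher by 0.77 ± 0.14 against ResKCs (adjusted p = 3.37e-05) and by 0.67 ± 0.14 against moKCs (adjusted p = 0.00100), or by 0.87 ± 0.13 and 0.76 ± 0.14 without replicate 4. The difference from moKCs did not pass with replicate number as a block (adjusted p = 0.123). The gene (ENSMUSG00000000489.7) lies at chr15:79995874-80014977 on the - strand.

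Pdgfc, a ligand that is secreted with an inhibitory CUB domain, moved the other way. It was at 20.5, 46.9 and 92.6 CPM in CLEC4F- macs, at 79.3, 104 and 135 CPM in WD ResKCs and at 66.0, 105, 118, 84.0 and 136 CPM in moKCs. Only CLEC4F- replicate 4, with 92.6 CPM, lay within the range of ResKCs or moKCs. Pdgfc fell by 1.08 ± 0.29 against ResKCs (adjusted p = 0.00362) and by 1.03 ± 0.30 against moKCs (adjusted p = 0.0151), or by 1.35 ± 0.29 and 1.29 ± 0.30 without that sample. The difference from moKCs no longer passed without CLEC4F- replicate 1 (-0.85 ± 0.29, adjusted p = 0.0512) or moKC replicate 5 (-0.90 ± 0.32, adjusted p = 0.0543). In ResKCs its spread was wide, from 35.5 to 129 CPM in the 5 WD samples at 12 weeks and from 46.8 to 139 CPM in the 6 SD samples at 24 weeks. The gene (ENSMUSG00000028019.9) lies at chr3:81036416-81214040 on the + strand.

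Pdgfa, the A-chain gene, was low in all groups. CLEC4F- macs had 12.0, 13.0 and 15.1 CPM and WD ResKCs 8.20, 11.0 and 12.0 CPM, and although the samples of the 2 groups did not overlap (1 of 2 such genes among the 10, against 16% of all genes), the difference of 0.36 ± 0.14 did not pass (adjusted p = 0.0534). It passed under DESeq2, limma-voom, the fit without TMM scaling and the fit of the compared groups alone. MoKCs had 9.16, 13.7, 12.2, 18.8 and 13.7 CPM (0.38 ± 0.15 against ResKCs, adjusted p = 0.176). The gene (ENSMUSG00000025856.15) lies at chr5:138976014-138997370 on the - strand. Of the 6 receptor and protease genes of the PDGF pathway, 5 were tested, and Plau, encoding a protease that can activate PDGF ligands, was higher in CLEC4F- macs than in ResKCs (6.42 to 15.3 CPM against 1.88 to 5.59 CPM, 1.84 ± 0.29, adjusted p = 6.62e-06) and than in moKCs (0.84 ± 0.30, adjusted p = 0.0479), or by 0.94 ± 0.32 without moKC replicate 1 (adjusted p = 0.0514). Pdgfrl fell in CLEC4F- macs against moKCs (-1.75 ± 0.46, adjusted p = 0.00628). Of all genes, 16.1% were higher in CLEC4F- macs than in ResKCs, and against moKCs 7.09% were higher and 9.34% lower. The receptor genes Pdgfra (0 to 0.945 CPM) and Pdgfrb (1.80 to 5.28 CPM) were low in WD ResKCs at 24 weeks.

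Igf1, the growth factor with the highest level per kilobase in ResKCs, did not pass with diet and was lower in CLEC4F- macs. SD ResKCs at 24 weeks had 493, 560 and 645 CPM (lowest, median, highest) and WD ResKCs 520, 591 and 669 CPM (0.07 ± 0.13, adjusted p = 0.790). CLEC4F- macs had 235, 373 and 576 CPM, and 5 of the 6 samples lay below all WD ResKC samples, with replicate 4 at 576 CPM. Igf1 fell by 0.59 ± 0.13 (adjusted p = 6.55e-04), and by 0.73 ± 0.12 without replicate 4. Against moKCs, which had 372, 588, 647, 566 and 698 CPM, it fell by 0.54 ± 0.14 (adjusted p = 0.00487), and by 0.67 ± 0.13 without moKC replicate 1, the sample at 372 CPM, but it did not pass with the compared groups alone (-0.53 ± 0.20, adjusted p = 0.107). Across the 6 CLEC4F- samples, Igf1 and Pdgfc were lowest in replicate 1, where Clec4f was also lowest, and highest in replicate 4, where Clec4f was highest. The gene (ENSMUSG00000020053.18) lies at chr10:87858265-87937042 on the + strand. Of 8 tested genes of IGF receptors and binding proteins, 1 was higher (16.1% of all genes) and 1 lower (17%) in CLEC4F- macs than in ResKCs. The receptor gene Igf1r was the higher (2.29 ± 0.46, adjusted p = 1.57e-04) and the clearance receptor gene Igf2r the lower (-0.75 ± 0.18, adjusted p = 0.00158). None of the 8 passed with diet at 24 weeks.

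**Figure D3:**
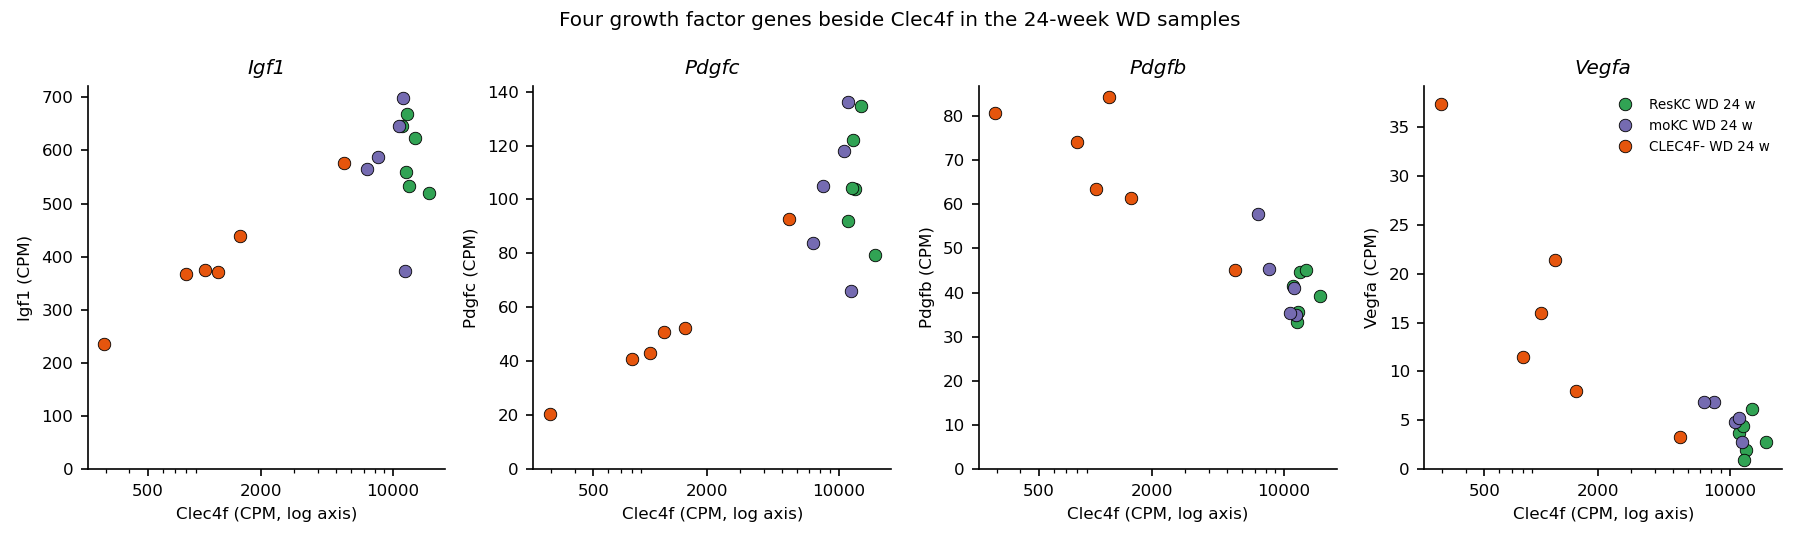
Level of Igf1, Pdgfc, Pdgfb and Vegfa (vertical axes, CPM from 0) against that of Clec4f (horizontal axes, CPM on a log scale) in the 17 WD samples at 24 weeks, coloured by population, the 4 genes being chosen after their values were seen. CLEC4F- replicate 4, the orange point at 5482 CPM of Clec4f, lay next to the CLEC4F+ samples in all 4 panels. This did not hold for every gene: Hbegf, not shown here, was at 14.2 CPM in that sample. This was below all WD ResKC samples (20.2 to 45.1 CPM) and within the range of moKCs (12.3 to 81.4 CPM).

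Vegfa, the main angiogenic VEGF ligand, was low in ResKCs and highest in CLEC4F- macs. CLEC4F- macs had 3.28, 13.7 and 37.4 CPM, against 0.902, 3.24 and 6.14 CPM in WD ResKCs and 2.77, 6.83, 4.79, 6.91 and 5.19 CPM in moKCs. Again all CLEC4F- samples but replicate 4, which had 3.28 CPM, lay above all ResKC and all moKC samples. Against ResKCs, Vegfa was higher by 2.30 ± 0.54 (adjusted p = 9.81e-04) and by 2.51 ± 0.52 without replicate 4. Against moKCs the difference of 1.62 ± 0.55 (adjusted p = 0.0400) was less stable, being 1.20 ± 0.55 without CLEC4F- replicate 1 (adjusted p = 0.174), the sample at 37.4 CPM, and 1.46 ± 0.59 without moKC replicate 1 (adjusted p = 0.108), and it passed in 4 of 11 fits that left out 1 sample. Of 10 other settings it passed in 5. It did not pass without the filter on low counts, with immediate-early and heat-shock genes or name pattern as a covariate, with the compared groups alone or with replicate number as a block. With diet in ResKCs at 24 weeks, SD samples had 0, 1.18 and 1.89 CPM, and 5 of 6 WD samples lay above all of them, but the difference of 1.59 ± 0.57 did not pass (adjusted p = 0.0754), except under DESeq2 (adjusted p = 0.0337). The gene (ENSMUSG00000023951.17) lies at chr17:46016993-46032369 on the - strand. Of the 10 hypoxia response genes, 4 were higher (4.84% of all genes) and 1 lower (3.87%) in WD than in SD ResKCs at 24 weeks. The highest fold was that of Egln3, a prolyl hydroxylase gene, at 0.217 to 2.76 CPM in WD and 0 to 0.570 CPM in SD samples (2.95 ± 0.90, adjusted p = 0.0351, or 0.0611 without WD ResKC replicate 4). Car9, a carbonic anhydrase gene, was the one that fell, at 5.60 to 7.88 CPM against 7.57 to 11.4 CPM (-0.54 ± 0.14, adjusted p = 0.0177). Also higher were the metabolic genes Ldha at 0.44 ± 0.10 (adjusted p = 0.00382) and Pdk1 at 0.41 ± 0.10 (adjusted p = 0.00804). In CLEC4F- macs against ResKCs 1 was higher (16.1% of all genes) and 2 were lower (17%), or 1 lower without WD ResKC replicate 4. Among them Adm fell by 2.47 ± 0.26 (adjusted p = 5.94e-09). The co-receptor genes Nrp2 (1.52 ± 0.30, adjusted p = 1.57e-04) and Nrp1 (0.35 ± 0.13, adjusted p = 0.0320, or 0.0527 without CLEC4F- replicate 4) were the 2 of 7 tested VEGF pathway genes that were higher in CLEC4F- macs than in ResKCs, against 16.1% of all genes.

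Hbegf, a membrane-bound EGF receptor ligand that is shed by metalloproteases, fell with the WD at 24 weeks and was lowest in CLEC4F- macs. SD ResKCs at 24 weeks had 26.2, 63.6 and 122 CPM (lowest, median, highest) and WD ResKCs 20.2, 27.3 and 45.1 CPM. Of the 6 WD samples, 2 lay below all SD samples. The decrease was 1.17 ± 0.35 on the log2 scale (adjusted p = 0.0338), and it passed in 5 of 12 fits that left out 1 sample, with -0.88 and an adjusted p of 0.113 without SD replicate 5, the sample at 122 CPM, and -1.16 and 0.0613 without WD ResKC replicate 4. It did not pass under limma-voom (-1.06 ± 0.35, adjusted p = 0.0575) or with the name pattern as a covariate (-0.91 ± 0.38, adjusted p = 0.134), and was -1.43 ± 0.41 within the first pattern (adjusted p = 0.0413). Of the 10 immediate-early and heat-shock genes, 7 fell (3.87% of all genes) and 0 rose (4.84%), with a median of -1.71, and Atf3, Hspa1a and Hspa1b did not pass. Without WD ResKC replicate 4, 3 fell (2.76% of all genes) and the median was -1.82. Their summed level was 2583 to 13808 CPM in SD and 1049 to 4939 CPM in WD samples. Over the 24 ResKC samples Hbegf and the mean log2 level of the list had a Pearson r of 0.87, with both values of a sample taken from the same library and the same digested cells. With that list as a covariate, the diet difference of Hbegf was -0.14 ± 0.25 (adjusted p = 0.808). The 10 sinusoidal endothelial markers summed to 688 to 1811 CPM in SD and 462 to 1046 CPM in WD samples, none of them at 0 in all samples, and their part in the result was not tested. In CLEC4F- macs Hbegf was at 9.51, 12.2 and 17.4 CPM, below all WD ResKC samples (-1.17 ± 0.36, adjusted p = 0.0120), and with the immediate-early list as a covariate the difference was -1.66 ± 0.23 (adjusted p = 1.45e-06). Of that list, 3 of 10 genes (Atf3, Fos and Junb) were higher in CLEC4F- macs than in ResKCs (16.1% of all genes) and 0 lower (17%). Without WD ResKC replicate 4, 2 of the 10 were higher (15.9% of all genes) and 0 lower (16.6%). The list summed to 2169.6 to 10852.5 CPM in CLEC4F- macs, against 1049 to 4939 CPM in WD ResKCs. MoKCs had 81.4, 12.3, 22.2, 32.9 and 17.9 CPM. The difference of CLEC4F- macs from moKCs was -1.40 ± 0.38 (adjusted p = 0.00786), and -0.75 ± 0.34 without moKC replicate 1 (adjusted p = 0.155), the sample which had the highest summed level of the immediate-early list among moKCs, 10575 CPM. This difference from moKCs also did not pass under limma-voom or with replicate number as a block. The gene (ENSMUSG00000024486.6) lies at chr18:36504927-36515805 on the - strand. The 7 tested genes of the EGF pathway did not pass with diet, and in CLEC4F- macs against ResKCs Erbb3 (-1.44 ± 0.19, adjusted p = 2.55e-07), Adam9 (-0.64 ± 0.09, adjusted p = 5.25e-07) and Adam17 (-0.29 ± 0.07, adjusted p = 0.00113), the latter encoding the main sheddase of EGF receptor ligands, were lower, where 17% of all genes were lower.

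**Figure D4:**
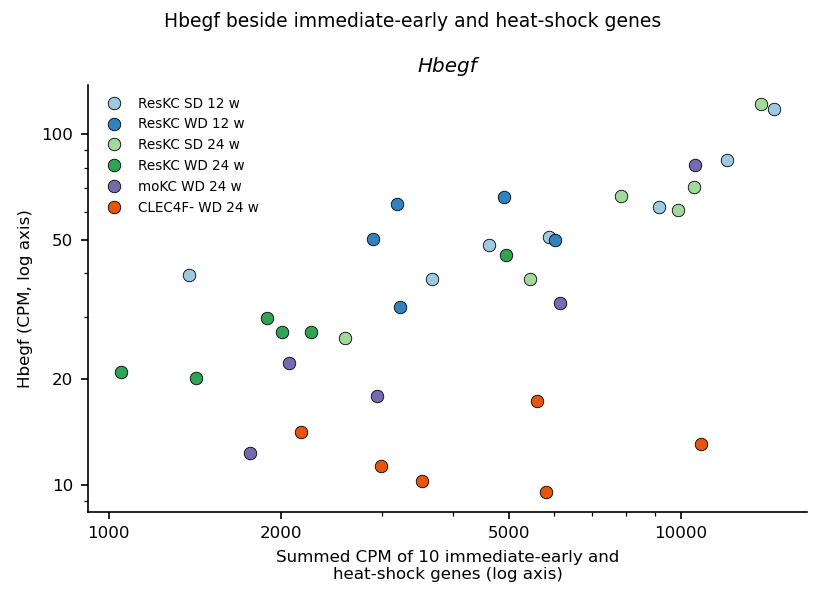
Level of Hbegf (vertical axis, CPM on a log scale) against the summed level of 10 immediate-early and heat-shock genes (horizontal axis, CPM on a log scale) in the 35 samples, coloured by group. The ResKC samples with the highest summed levels had the most Hbegf, up to 122 CPM, and the CLEC4F- samples lay between 9.51 and 17.4 CPM.

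Fn1, encoding fibronectin, had the largest difference in mean CPM between diets at 24 weeks of the 10 genes. SD ResKCs at 24 weeks had 13.4, 41.0 and 98.7 CPM (lowest, median, highest) and WD ResKCs 94.9, 175 and 685 CPM. Of the 6 WD samples, 5 lay above all SD samples. The log2 fold change was 2.49 ± 0.47 (adjusted p = 9.31e-04). Without WD ResKC replicate 4, the sample at 685 CPM, it was 1.92 ± 0.42 (adjusted p = 0.00656), and it passed in all 12 fits that left out 1 sample. Among samples of the first name pattern, 3 WD against 6 SD, it was 1.43 ± 0.47 and did not pass (adjusted p = 0.0695). With name pattern as a covariate it was 1.99 ± 0.47 (adjusted p = 0.00863). At 12 weeks WD ResKCs had 53.9, 73.3, 77.7, 53.7 and 50.8 CPM, and SD ResKCs 16.7, 23.6 and 81.6 CPM. All WD samples lay above 6 of the 7 SD samples and below the last, SD replicate 7, and the difference of 0.94 ± 0.45 did not pass (adjusted p = 0.568). The diet effect at 24 weeks was not shown to differ from that at 12 weeks (1.55 ± 0.65, adjusted p = 0.265), with 0.98 ± 0.59 (adjusted p = 0.503) without WD ResKC replicate 4.

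Within the WD-fed liver at 24 weeks, moKCs had 101, 61.4, 67.4, 56.9 and 57.5 CPM of Fn1 and CLEC4F- macs 73.3, 178 and 368 CPM. Of the 5 moKC samples, 4 lay below all WD ResKC samples, and Fn1 was lower in moKCs by a log2 fold change of -1.91 ± 0.49 (adjusted p = 0.0225). This was -1.33 ± 0.44 without WD ResKC replicate 4 (adjusted p = 0.0950), and the difference also failed to pass when any 1 of moKC replicates 2 to 5 was left out (adjusted p of 0.0510 to 0.0698). Among samples of the first name pattern it was -0.61 ± 0.63 (adjusted p = 0.786), and among those of the second -2.70 ± 0.59 (adjusted p = 0.0143). CLEC4F- macs had more Fn1 than moKCs (1.48 ± 0.48, adjusted p = 0.0302, 5 of 6 samples above all moKC samples), which passed in 5 of 11 fits that left out 1 sample and was 1.65 ± 0.48 without CLEC4F- replicate 4. CLEC4F- macs and ResKCs overlapped in Fn1 (-0.43 ± 0.44, adjusted p = 0.506, or 0.15 ± 0.41 without WD ResKC replicate 4). The gene (ENSMUSG00000026193.15) lies at chr1:71585520-71653200 on the - strand.

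Genes known from other cells were followed beside Fn1 and Tgfb2. A list of 8 genes known from peritoneal macs (Gata6, Prg4, Selp, Alox15, Serpinb2, Icam2, F5 and Lrg1) was put together after their values were seen and was not tested as a list. It holds Prg4 and Alox15, which are among the genes most like Tgfb2, so that a high level of the list in the samples with most Tgfb2 is in part fixed by this choice. The sort asked for CLEC4F, a marker of KCs, and the 6 KC markers summed to 25363 to 31282 CPM in WD and 26972 to 32554 CPM in SD samples at 24 weeks. Its summed level was 44.9, 77.7 and 87.2 CPM (lowest, median, highest) in SD ResKCs and 109, 195 and 560 CPM in WD ResKCs at 24 weeks, with the highest value in replicate 4. In that sample Prg4 was at 107 CPM, against 11.4 to 41.7 CPM in the other WD samples and 1.88 to 6.60 CPM in SD samples, and Alox15 at 243 CPM, against 14.1 to 126 CPM and 3.24 to 16.4 CPM. None of the 8 genes was at 0 in all samples of either group. Gata6, the defining transcription factor gene of large peritoneal macs, was between 0 and 3.07 CPM in WD and between 0 and 0.648 CPM in SD samples. Icam2, in contrast, was at 30.8 to 49.2 CPM in WD and 30.4 to 44.0 CPM in SD samples. The 10 hepatocyte markers, whose cell of origin also makes fibronectin, summed to 495 to 1460 CPM in SD and 1071 to 3201 CPM in WD samples, and with them as a covariate the difference of Fn1 was 2.36 ± 0.44 (adjusted p = 9.88e-04) and that of Tgfb2 3.31 ± 0.79 (adjusted p = 0.00834). The 10 stellate cell markers summed to 299 to 588 CPM in SD and 304 to 435 CPM in WD samples. The 5 markers of monocytes and CLEC4F- macs summed to 3.53 to 11.0 CPM in SD and 10.4 to 35 CPM in WD ResKCs, against 519.8 to 1888 CPM in CLEC4F- macs, with Chil3 at 0 in all SD samples. Of these markers, Cx3cr1 was higher on the WD (0.432 to 3.50 CPM in SD and 3.77 to 26.0 CPM in WD samples, 2.50 ± 0.56, adjusted p = 0.00502) and the other 4 did not pass. In moKCs against WD ResKCs, 2 of the 5 monocyte markers (Cx3cr1 and Ccr2) were higher and 0 lower, with a sum of 27.4 to 159 CPM in moKCs. Of the 10 stellate cell markers, Col3a1 and Dcn were higher and Ecm1 lower, where 2.99% of all genes passed in either direction. The peritoneal list summed to 109 to 147 CPM in moKCs against 109 to 560 CPM in WD ResKCs. The part of the peritoneal macrophage genes, the monocyte markers and the stellate cell markers in the differences of Fn1 and Tgfb2 was not tested.

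**Figure D5:**
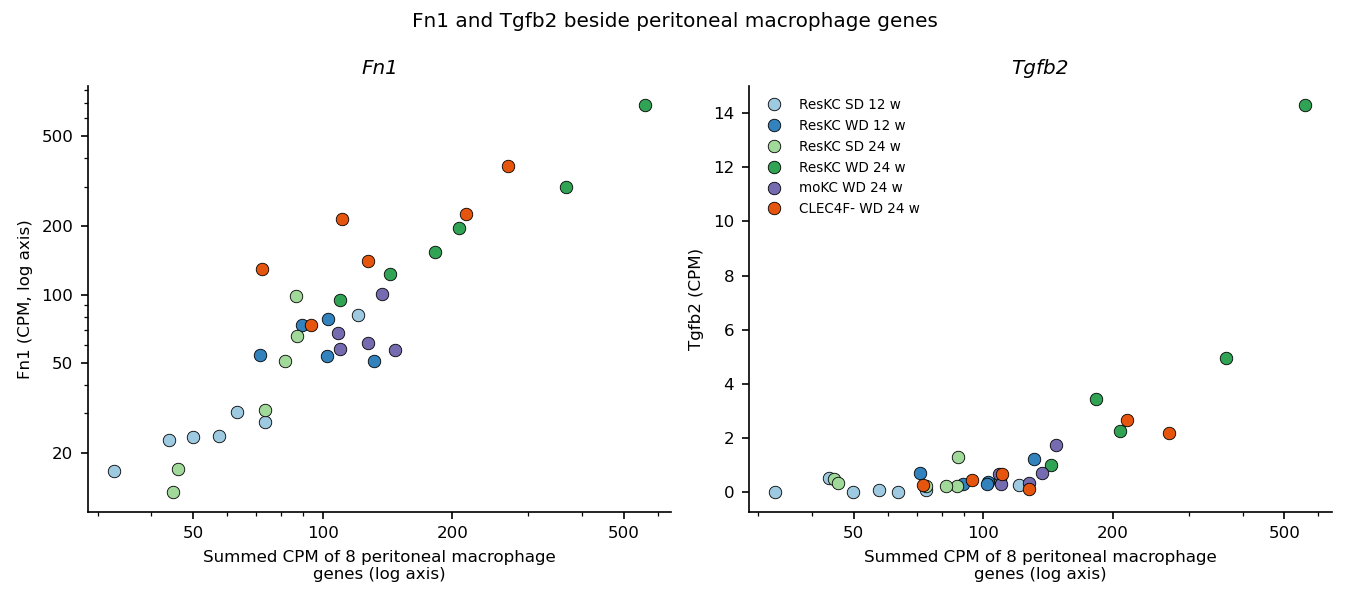
Level of Fn1 (left, CPM on a log scale) and Tgfb2 (right, CPM on a linear scale) against the summed level of 8 peritoneal macrophage genes (horizontal axes, CPM on a log scale) in the 35 samples, coloured by group. WD ResKC replicate 4 at 24 weeks was the highest sample on all axes, with 685 CPM of Fn1 and 14.3 CPM of Tgfb2.

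Of the 6 genes of fibronectin receptors and of its crosslinker, none passed with diet at 24 weeks. In CLEC4F- macs against ResKCs 3 were higher (16.1% of all genes) and 2 lower (17%). Sdc4 (1.36 ± 0.19, adjusted p = 1.07e-06), Itga4 (0.92 ± 0.14, adjusted p = 5.91e-06) and Itga5 (0.54 ± 0.16, adjusted p = 0.00989), which encode surface receptors of fibronectin, were higher. The crosslinking enzyme gene Tgm2 (-0.71 ± 0.11, adjusted p = 7.26e-06) and the integrin subunit gene Itgb1 (-0.47 ± 0.08, adjusted p = 1.21e-05) were lower. Among 12 other secreted factors linked to fibrosis, 10 were tested, 8 were higher (16.1% of all genes) and none lower (17%) in CLEC4F- macs than in ResKCs. The list had a median of 1.03, against 0.023 over all genes. Spp1, encoding osteopontin, was at 205 to 597 CPM against 3.59 to 45.1 CPM (4.65 ± 0.66, adjusted p = 1.08e-06). Osm, a gp130 cytokine gene, was higher by 4.25 ± 0.76 (adjusted p = 3.79e-05) and the stress cytokine gene Gdf15 by 1.43 ± 0.34 (adjusted p = 0.00132). With diet in ResKCs at 24 weeks, Spp1 (2.92 ± 0.73, adjusted p = 0.0111) and Lgals3 (0.34 ± 0.11, adjusted p = 0.0414, or 0.0682 without WD ResKC replicate 4) were higher and Tgfbi, a TGF-beta induced matrix gene, was lower (-0.42 ± 0.12, adjusted p = 0.0274).

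The genes whose log2 level over the 35 samples was most like that of each factor are given as a description of samples that share groups. For Igf1 they were Clec1b (Pearson r = 0.94), Il18bp (0.92) and Pcyox1 (0.90), and for Hbegf Fam43a (0.92), Marcksl1 (0.91) and Klf2 (0.91). Vegfa was most like Retreg1 (0.89), Sorl1 (0.85) and Iah1 (0.84), Fn1 most like Ednrb (0.86), Thbs1 (0.85) and Gda (0.84), and Tgfb2 most like Prg4 (0.88), Alox15 (0.77) and Padi4 (0.77). For Pdgfb they were Slc36a3os (0.85), Fcho1 (0.83) and Gm5086 (0.83), for Pdgfc C1ra (0.83), Gpx3 (0.82) and Fabp7 (0.82), and for Pdgfa Timp1 (0.79), Capg (0.77) and Clec5a (0.77). Tgfb3, with Tctn3 (0.76), Trim65 (0.70) and Vgll4 (0.69), and Tgfb1, with Zmiz2 (0.74), Pik3r5 (0.74) and Zmiz1 (0.73), had the weakest nearest genes.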

How the data were processed

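Bulk RNA-seq libraries (TruSeq, NextSeq500, single reads) were made by the authors from macs sorted after collagenase digestion. Per the labels and the study's methods, the authors mapped reads to mm10 with HISAT2 2.2.0 and counted them with featureCounts 2.0.0, and what they deposited is a raw count of reads for each gene symbol and sample. The annotation and strand setting are not given in the sources used here. A gene was tested when 5 or more samples exceeded 1 CPM (13421 genes), and TMM factors and edgeR 4.0.16 (R 4.3.3) were used in 1 quasi-likelihood fit of 6 group means over all 35 samples, with Benjamini-Hochberg adjustment over all genes and 0.05 as limit. DESeq2 1.42.0 and limma-voom (limma 3.58.1) served as alternatives, with the others in the closing section. Levels are TMM-scaled CPM. Levels per kilobase use the union of exons of GENCODE M21, which also gave the positions (mm10), and promoters and start sites are those of RefSeq. Correlations use log2 CPM with a prior count of 2. The fits were tested on simulated counts. Named genes are the 10 members and, of each pathway list, up to 4 genes with the largest change among those that passed. Nrros, Pdgfra, Pdgfrb, Itgb1 against ResKCs, Atf3, Hspa1a, Hspa1b and the peritoneal genes fall outside this rule and were chosen after their values were seen. One gene that the rule names is not reported here. Ctgf and Car9 stand in the files for Ccn2 and Ca9. The members and lists were chosen with earlier results of these data known. Counts of any 2 samples of a group differed by more than sampling noise. For the 5 WD ResKC samples at 12 weeks, whose labels disagree on the diet, title and description (WD) were followed.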

Additional observations from a re-analysis of the deposited data

Results flagged for a closer look

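Of the 60 sets of a gene and a group, 7 held a sample that stood apart from the others of its group by Dixon's criterion at 95%, where chance alone flags about 1 set in 20, or 3 of 60. Fn1 in WD ResKC replicate 4 at 24 weeks was at 685 CPM with the next sample at 300.0 CPM, and Tgfb2 in the same sample was at 14.3 CPM with the next at 4.96 CPM. Tgfb2 also stood apart in SD ResKC replicate 4 at 24 weeks with 1.30 CPM (next 0.491 CPM) and in moKC replicate 4 with 1.75 CPM (next 0.709 CPM), both at few counts. Tgfb3 was at 23.6 CPM in SD ResKC replicate 5 at 24 weeks, against 10.6 CPM in the next sample. Fn1 was at 81.6 CPM in SD ResKC replicate 7 at 12 weeks, against 30.3 CPM, and at 101 CPM in moKC replicate 1, against 67.4 CPM. The causes of these values were not tested.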

How the results depend on the processing

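Of 800 member differences under other settings and 950 with 1 sample left out, 753 and 912 kept their side of the limit, 39 and 34 no longer passed, 8 and 4 came to pass, and no difference that passed under either setting changed sign; of 1341 that passed under neither, 111 changed sign. With diet at 24 weeks, 1 gene, Fn1, passed instead of 3 with name pattern as a covariate (897 instead of 1169 of all genes). Within the first pattern 1 passed, Hbegf (661 of all genes, a fit added after seeing the data), so that no gene passed in both. With 1 sample left out 1 to 3 passed (1, Fn1, without WD ResKC replicate 4). Between CLEC4F- macs and ResKCs 1 instead of 6 passed within the second pattern (also added, with 1988 instead of 4433 of all genes), and 5 to 7 with 1 sample left out. Between moKCs and ResKCs 2 instead of 1 passed under DESeq2 (576 instead of 401 of all genes), 0 within the first pattern (91 of all genes), and 0 to 1 with 1 sample left out. Between CLEC4F- macs and moKCs 4 instead of 7 passed with the compared groups alone (1614 instead of 2204 of all genes, and not Tgfb1, Igf1 or Vegfa), 4 within the first and 0 within the second pattern (1882 and 482 of all genes), 4 with a log2 fold change over 1 also asked for (678 of all genes), and 4 to 7 with 1 sample left out (4 without moKC replicate 5 or CLEC4F- replicate 1). These causes were not tested, beyond the smaller number of samples. At 12 weeks, between SD times and for the difference of the diet effects, 0 passed throughout. The labels do not say whether replicate numbers pair the samples, and the main fit treated them as unpaired. No comparison had all same-numbered pairs correlated above 0.1 or all samples correlated best with their own number. Such a rule cannot show that the samples were unpaired. WD ResKCs and CLEC4F- macs came nearest, with 4 of 6 pairs above 0.1 and 5 of 6 samples best with their own number, a hint from the data and not the design. With a replicate block 3 genes passed with diet at 24 weeks, 5 between CLEC4F- macs and ResKCs (not Tgfb2, at -1.84 ± 0.73 with an adjusted p of 0.0877), 0 between moKCs and ResKCs (121 instead of 401 of all genes) and 2 between CLEC4F- macs and moKCs (675 instead of 2204 of all genes), where Pdgfc and Fn1 passed and Tgfb1, Pdgfb, Igf1, Vegfa and Hbegf did not. In these blocks moKC replicate 3, of the second name pattern, is joined with replicate 3 of ResKCs or CLEC4F- macs, of the first. The blocks with moKCs may therefore be misaligned, and neither they nor the pairing check with moKCs can decide whether those samples are paired. Library totals without TMM factors left 59 of 60 group levels within 1 SD, and moved Pdgfa in CLEC4F- macs from 13.3 to 14.4 CPM. All 10 genes passed the filter, so the settings planned for genes under it gave no values. Tgfb2 and Vegfa rest on few counts in most samples, and their differences are the least precise.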
